A study of Mus musculus with 6 samples.

Results

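The proteasome is the large protease that degrades proteins tagged with ubiquitin. Its genes were compared between splenic regulatory T cells (Tregs) that express RORγt and Tregs that carry CCR6 without RORγt. The members are all rows of the deposited table of normalized counts whose symbol begins with Psm, a letter from a to g and a digit. The pattern took 52 of 15944 genes. By their known roles, 7 were alpha ring subunits, 3 the constitutive catalytic beta subunits, 3 the immunoproteasome subunits and 5 other beta subunits. A further 6 were ATPases and 11 were non-ATPase subunits of the regulatory particle, 6 were activators or an inhibitor, and 7 were assembly genes. The remaining 4 symbols are no subunits: Psmc3ip, Psme3ip1 and the pseudogenes Psma5-ps and Psmb6-ps2.

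The study holds 6 bulk RNA-seq libraries of Tregs from naive spleens of C57BL/6 mice. In 3 libraries the cells were CD3+CD4+ and positive for a Foxp3 (RFP) reporter and a RORγt (GFP) reporter. They are called RORγt+ Tregs here. In the other 3 libraries the cells were CD3+CD4+ and Foxp3 (RFP)+, negative for the RORγt (GFP) reporter and stained for CCR6, and are called CCR6+RORγt- Tregs. Both groups carry both reporters, were enriched for CD4+ cells on magnetic beads and were then sorted by flow cytometry. CCR6 was a gate of the second sort alone. The labels tie no library to an animal, so the spread behind each p-value is that between 6 libraries and may be technical. RNA came from bulk sorts, so fewer cells of a type and less RNA per cell cannot be told apart.

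In the proteasome, stacked rings of alpha and beta subunits form a barrel, the 20S core particle, and 3 of the beta subunits carry the cutting sites. The regulatory particle binds ubiquitin, unfolds the substrate with its ring of ATPases and feeds it into the core through a gate made by the alpha ring. Interferon-γ induces alternative catalytic subunits, which replace the constitutive ones in newly built cores to give the immunoproteasome. Lymphocytes are known for high immunoproteasome levels, and its peptides load MHC class I molecules. Dedicated chaperones build the core and the base of the regulatory particle.

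Library totals lay between 11325902 and 11890770 normalized counts, which by the value of a single read is about 9204040 to 14496095 reads. RORγt+ replicate 3 stood apart. It was the shallowest library, listed 1247 genes at 0 against 438 to 638 in the other 5, and correlated with them at 0.932 to 0.938, where the others correlated at 0.947 to 0.967 with each other. Foxp3 stood at 10835, 11072 and 12609 normalized counts in RORγt+ libraries, against 9914, 10187 and 9789.7 in CCR6+RORγt- libraries. Ccr6 stood at 698, 815 and 899.9 normalized counts in RORγt+ libraries, against 112, 142 and 148 in CCR6+RORγt- libraries. Of 8 Treg and T cell markers, 5 had groups that did not overlap, against 18.1% of all genes. In RORγt+ Tregs 4 of these were higher (Foxp3, Ccr6, Il2ra and Ctla4) and 1 was lower (Cd3g). B cell markers (6 of 6 measured) summed to 7126 to 10786 normalized counts in RORγt+ libraries and 8299 to 10388 in CCR6+RORγt- libraries, mostly Ighm. Dendritic cell markers (3 of 5) summed to 3.42 to 28.7 normalized counts in RORγt+ libraries and 16.1 to 27.1 in CCR6+RORγt- libraries. Monocyte and macrophage markers (2 of 5) summed to 19.0 to 87.2 in RORγt+ libraries and 5.25 to 28.6 in CCR6+RORγt- libraries, and plasma cell markers (2 of 3) to 23.1 to 52.7 in RORγt+ libraries and 7.28 to 31.6 in CCR6+RORγt- libraries. CD8 T cell markers (2 of 2) summed to 116 to 152 in RORγt+ libraries and 99.0 to 183 in CCR6+RORγt- libraries, and red cell markers (3 of 4) to 125 to 856 in RORγt+ libraries and 50.5 to 4215 in CCR6+RORγt- libraries. Among dendritic cell markers, Xcr1 and Siglech were at 0 in RORγt+ replicate 3 and Itgax in CCR6+RORγt- replicate 1. The part of other cells in the proteasome values was not tested.

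No proteasome gene passed the test between RORγt+ and CCR6+RORγt- Tregs. Genes were tested as log2(value + 1) with limma over all 15944 genes, and fold changes are on that scale, RORγt+ minus CCR6+RORγt-. At a Benjamini-Hochberg adjusted p under 0.05, 0 of the 52 members were called, against 0.564% of all genes. At an unadjusted p under 0.05 the count was again 0 of 52, against 10.9% of all genes. The adjusted p of members lay between 0.464 (Psma5) and 0.9996 (Psme2b), by limma. The 95% interval of the fold change stayed within 2-fold in either direction for 46 of 52 members. Of the 6 whose interval went past 2-fold, 4 averaged under 100 normalized counts, and the others were Psmb5 and Psme2b.

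The log2 fold change was above 0 for 37 members and below 0 for 15. Its median was 0.074, against -0.011 over all genes. The 3 values of RORγt+ Tregs lay wholly outside those of CCR6+RORγt- Tregs for 12 of 52 members, or 23.1%, against 18.1% of all genes. Of these 12, 11 were higher (background 8.31%) and 1, Psmd7, was lower (background 9.81%). Without RORγt+ replicate 3, 32 members had a log2 fold change above 0 and the median was 0.030. That fit again called 0 members, where 1.09% of all genes passed, and 3 members (Psma7, Psmb9 and Psmc6) had an unadjusted p under 0.05, against 17.7% of all genes. Among the 48 members that averaged at least 100 normalized counts, the median size of the log2 fold change was 0.11, against 0.17 for the 9056 genes of that level.

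**Figure D1:**
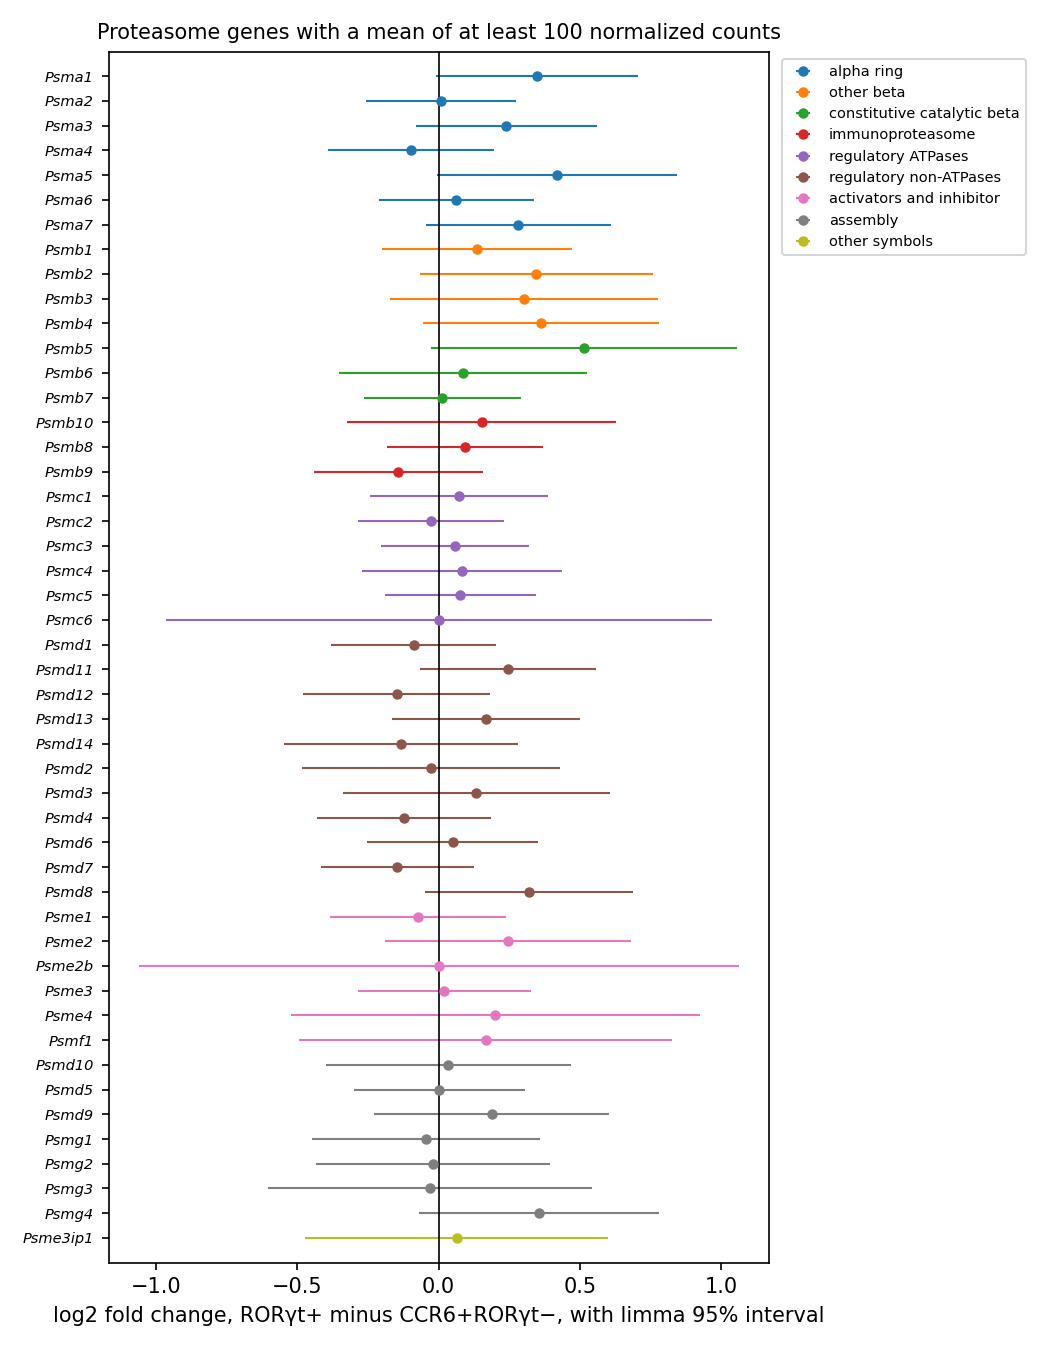
Log2 fold change, RORγt+ minus CCR6+RORγt- Tregs, of the 48 members that averaged at least 100 normalized counts (x axis; bars are limma 95% intervals, n = 3 libraries a group; colours are classes). Every interval reaches 0; the alpha ring and other beta subunits lie mostly right of 0, the ATPases near it, and Psmb5 has the largest value at 0.51.

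The alpha ring genes mostly had higher values in RORγt+ Tregs, but none passed the test, and the class as a whole was not tested. Their median log2 fold change was 0.24. In the 6 fits that each left out a library it was lowest, at 0.13, when RORγt+ replicate 1 was dropped. Dropping RORγt+ replicate 3 gave 0.23. With each library corrected for GC content and transcript length the median was 0.16, and 5 of the 7 genes were above 0. The 7 genes together took 0.0761%, 0.0717% and 0.0734% of the library total in RORγt+ libraries, against 0.0650%, 0.0656% and 0.0655% in CCR6+RORγt- libraries. All 3 RORγt+ libraries were above all 3 others in this share. The other beta subunits were separated too, at 0.0366% to 0.0528% in RORγt+ libraries against 0.0326% to 0.0353% in CCR6+RORγt- libraries. So were the ATPases, at 0.0623% to 0.0658% against 0.0584% to 0.0604%. In the remaining classes the shares overlapped. These shares rest on library totals, and scaling to those totals moved the median log2 fold change over all genes from -0.011 to 0.018. Of the 7 genes, 6 had a log2 fold change above 0, and 4 (Psma1, Psma3, Psma5 and Psma7) had groups that did not overlap, all 4 higher, against 18.1% of all genes in either direction and 8.31% in that direction.

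Psma5 (chr3:108256926-108279974, GRCm38), which encodes the α5 ring subunit, had the smallest p of all members. It stood at 550.0, 466 and 715 normalized counts in RORγt+ libraries, against 428, 423 and 421 in CCR6+RORγt- libraries. The CCR6+RORγt- values were nearly alike, and the RORγt+ values ran from just above them to well above. The log2 fold change was 0.42 ± 0.18 (SE; limma adjusted p = 0.464), and 0.25 without RORγt+ replicate 3. Of the 31-base windows of Psma5, 66.5% also occur in transcripts of other genes, so its value is uncertain. The pseudogene Psma5-ps, which shares 66.3% of its windows, had 11.6, 14.9 and 22.5 normalized counts in RORγt+ libraries, against 10.3, 0 and 7.39 in CCR6+RORγt- libraries.

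Psma1 encodes the α6 subunit, and the gene lies on chromosome 7. It had 858, 831 and 1071 normalized counts in RORγt+ libraries, against 644, 764 and 752 in CCR6+RORγt- libraries. The groups did not overlap, with a log2 fold change of 0.35 ± 0.15 (SE; limma adjusted p = 0.474). Psma7, the α4 subunit, had 1444, 1490.1 and 1331 normalized counts in RORγt+ libraries, against 1209, 1007 and 1308 in CCR6+RORγt- libraries. Here RORγt+ replicate 3 was the lowest of its group, in contrast to Psma5 and Psma1. The log2 fold change of Psma7 was 0.28 ± 0.14 (SE; limma adjusted p = 0.542), and neither Psma1 nor Psma7 shares a 31-base window with another gene. Psma3 (named after its values were seen) had 1710.2, 1379 and 1365 normalized counts in RORγt+ libraries, against 1220.4, 1196 and 1337 in CCR6+RORγt- libraries. Its log2 fold change was 0.24, and RORγt+ replicate 3 was only just above CCR6+RORγt- replicate 3. Of the 31-base windows of Psma3, 27.9% also occur in transcripts of other genes, so its value is uncertain. Among these genes, Gm13835 held 205 normalized counts in RORγt+ replicate 2, 204 in CCR6+RORγt- replicate 2 and 0 in the other libraries. How reads were divided between Psma3 and Gm13835 was not tested. Psma2, Psma4 and Psma6 had log2 fold changes of 0.0087, -0.097 and 0.062. Psma8 was not analysed here.

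The other beta subunits are Psmb1 to Psmb4, which carry no cutting site, and the thymus-specific catalytic subunit Psmb11 (β5t). Their median log2 fold change was 0.30, and 0.078 without RORγt+ replicate 3. Leaving out Psmb11, whose mean was under 10 normalized counts, gave a median of 0.32. Psmb4, the β7 subunit, had 1025, 945 and 1439 normalized counts in RORγt+ libraries, against 819.6, 869 and 919 in CCR6+RORγt- libraries. Psmb2, the β4 subunit, had 628, 632 and 909 normalized counts in RORγt+ libraries, against 542, 575 and 563 in CCR6+RORγt- libraries. Psmb3, the β3 subunit, had 1049.7, 970.3 and 1615 normalized counts in RORγt+ libraries, against 1005, 968 and 899 in CCR6+RORγt- libraries. In all 3 genes RORγt+ replicate 3 was by far the highest library, and RORγt+ replicates 1 and 2 lay at or somewhat above the CCR6+RORγt- values. The log2 fold changes were 0.36 ± 0.18 for Psmb4, 0.35 ± 0.18 for Psmb2 and 0.30 ± 0.20 for Psmb3 (SE; limma adjusted p of 0.541, 0.56 and 0.679), and without RORγt+ replicate 3 they were 0.18, 0.17 and 0.078. Psmb11 was at a low level, with 6.36, 1.99 and 7.47 normalized counts in RORγt+ libraries, against 5.12, 4.54 and 9.82 in CCR6+RORγt- libraries.

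The 3 cutting sites of the core exist in 2 versions, and the pairs were read next: Psmb8 (β5i) replaces Psmb5 (β5), Psmb9 (β1i) replaces Psmb6 (β1), and Psmb10 (β2i) replaces Psmb7 (β2). The immunoproteasome genes did not differ beyond the spread between libraries, and Psmb5 had the largest log2 fold change of all subunit genes.

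Psmb8 (chr17:34197721-34201454, GRCm38) had 4147, 4377 and 4847 normalized counts in RORγt+ libraries, against 4440.1, 4212 and 3867 in CCR6+RORγt- libraries. The groups overlapped, with a log2 fold change of 0.094 ± 0.12 (SE; limma adjusted p = 0.854), and 0.032 without RORγt+ replicate 3. Psmb9 (chr17:34181987-34187764, GRCm38) had 1023, 1045 and 1246 normalized counts in RORγt+ libraries, against 1238, 1188 and 1219 in CCR6+RORγt- libraries. RORγt+ replicates 1 and 2 were below every CCR6+RORγt- library and replicate 3 was above them. The log2 fold change of Psmb9 was -0.14 ± 0.13 (SE; limma adjusted p = 0.774), and -0.23 without RORγt+ replicate 3 (unadjusted p = 0.0353, limma adjusted p = 0.246). Psmb10 (chr8:105935735-105938444, GRCm38) had 806, 815 and 1291 normalized counts in RORγt+ libraries, against 924, 825 and 811 in CCR6+RORγt- libraries. The sign of its log2 fold change, 0.15 ± 0.20 (SE; limma adjusted p = 0.867), rested on RORγt+ replicate 3: without it the value was -0.071.

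Psmb5 (chr14:54614119-54618022, GRCm38) had 468, 569 and 864 normalized counts in RORγt+ libraries, against 462, 422 and 404 in CCR6+RORγt- libraries. The groups did not overlap, but RORγt+ replicate 1 was only just above CCR6+RORγt- replicate 1. The log2 fold change was 0.51 ± 0.23 (SE; limma adjusted p = 0.484), with a 95% interval of -0.028 to 1.06, and 0.27 without RORγt+ replicate 3. With each library corrected for GC content and transcript length it was 0.57. Of its 31-base windows 74% also occur elsewhere, among others in Gm3375, which held 4.89 to 12.9 normalized counts. Psmb6 (chr11:70525367-70527858, GRCm38) had 608, 570.2 and 851 normalized counts in RORγt+ libraries, against 670.0, 662 and 556 in CCR6+RORγt- libraries. Its log2 fold change of 0.085 ± 0.19 (SE; limma adjusted p = 0.936) became -0.092 without RORγt+ replicate 3. Psmb7 (chr2:38588036-38644087, GRCm38) had 899, 810.2 and 828 normalized counts in RORγt+ libraries, against 853, 830.2 and 827 in CCR6+RORγt- libraries, and a log2 fold change of 0.013 ± 0.12 (SE; limma adjusted p = 0.983).

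A ratio of the replacing to the constitutive subunit is taken within a library and so does not depend on the scaling between libraries. Psmb8 over Psmb5 was 8.87, 7.69 and 5.61 in RORγt+ libraries, against 9.61, 9.98 and 9.57 in CCR6+RORγt- libraries. All RORγt+ ratios were below all CCR6+RORγt- ratios, with means of 7.39 ± 1.65 and 9.72 ± 0.223 (SD, n = 3 each). The difference of the mean log2 ratios was -0.42, and -0.23 without RORγt+ replicate 3. Psmb9 over Psmb6 was 1.68, 1.83 and 1.46 in RORγt+ libraries, against 1.85, 1.79 and 2.19 in CCR6+RORγt- libraries. These groups overlapped, with a difference of -0.23, and -0.14 without RORγt+ replicate 3. Psmb10 over Psmb7 was 0.897, 1.006 and 1.56 in RORγt+ libraries, against 1.08, 0.994 and 0.98 in CCR6+RORγt- libraries. Its difference of 0.14 became -0.099 without RORγt+ replicate 3. No p is given for these ratios, since the pairs are members of a list chosen with earlier results known.

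**Figure D2:**
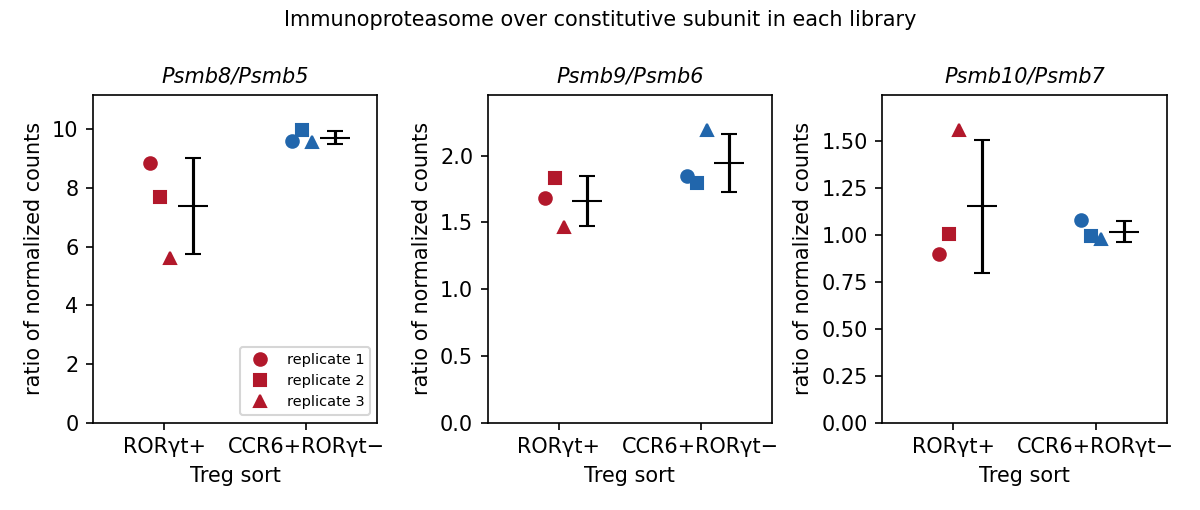
Ratio of normalized counts of each immunoproteasome gene over the constitutive gene it replaces (y axis), per library (points; shapes are replicates) with the mean and SD beside them (bars, n = 3), for RORγt+ and CCR6+RORγt- Tregs. Psmb8 over Psmb5 is 5.61 to 8.87 in RORγt+ libraries, below the 9.57 to 9.98 of CCR6+RORγt- libraries; the other pairs overlap, and RORγt+ replicate 3 is the extreme RORγt+ library in each panel.

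Levels of different genes were set side by side only per kilobase, once over the merged exons and once over the longest protein-coding transcript. The immunoproteasome genes made up 64.1%, 63.7% and 60.4% of the 6 catalytic genes per kilobase of merged exons in RORγt+ libraries, against 66.2%, 65.8% and 66.4% in CCR6+RORγt- libraries. Over the longest transcript the shares were 65.6%, 66.6% and 64.1% in RORγt+ libraries, against 67.5%, 67.0% and 67.7% in CCR6+RORγt- libraries. With either length the replacing subunits were the larger part in every library, and every RORγt+ share was below every CCR6+RORγt- share. Psmb5 is among the 6 genes, so these shares are not independent of the Psmb8 over Psmb5 ratio. The ratios of the other pairs overlapped between the groups, and a share without Psmb5 was not taken. The size of a single ratio depended on the length used: Psmb8 over Psmb5 per kilobase averaged 1.96 in RORγt+ and 2.58 in CCR6+RORγt- libraries over merged exons, and 4.08 and 5.37 over the longest transcript. Psmb8 had the highest level per kilobase of the 6 with both lengths. Among the 48 classed genes it was second to Psme1, an activator subunit that is also induced by interferon-γ, and Psmb11 was lowest.

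Promoters of the constitutive catalytic genes Psmb5 and Psmb6 are shown because these genes sit in the denominators of the ratios above. The sequences are the 250 bases before the gene's start in RefSeq (GRCm38.p6), on the gene's strand, and 41 of the 48 classed genes matched an entry. In Psmb5 the capitals mark a match to TGACNNNGC, the letters of the antioxidant response element, 47 to 39 bases upstream. In Psmb6 they mark a match to the same letters 9 to 1 bases upstream and, 186 to 177 bases upstream, a match on the other strand to an NF-κB motif (GGG, any 5 bases, CC).
Psmb5, chr14:54617996-54618245, minus strand: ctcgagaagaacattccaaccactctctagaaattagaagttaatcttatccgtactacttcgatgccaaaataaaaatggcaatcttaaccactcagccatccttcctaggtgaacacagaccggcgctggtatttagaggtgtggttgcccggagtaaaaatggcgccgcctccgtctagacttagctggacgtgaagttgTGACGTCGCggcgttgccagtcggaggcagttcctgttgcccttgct
Psmb6, chr11:70525107-70525356, plus strand: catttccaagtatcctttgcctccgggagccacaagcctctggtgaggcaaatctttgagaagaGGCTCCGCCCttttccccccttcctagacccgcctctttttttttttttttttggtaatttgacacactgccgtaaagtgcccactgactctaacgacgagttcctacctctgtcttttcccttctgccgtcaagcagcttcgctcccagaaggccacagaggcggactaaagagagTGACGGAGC

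Over both strands, TGACNNNGC occurred in 5 of the 41 proteasome promoters, or 12.2%, against 11.5% of the 27025 genes with an entry. The NF-κB letters occurred in 23 of 41, or 56.1%, against 48.7% of all genes. CCAAT occurred in 14 of 41, or 34.1%, against 37.5% of all genes, and 5 of these 14 were alpha ring genes. The interferon-response letters (GAAA, any 2 bases, GAAA) occurred in 3 of 41, or 7.32%, against 3.46% of all genes, and none of the 3 was an immunoproteasome gene. TTCNNNGAA, the interferon-γ activated sequence, occurred in 2 of 41, or 4.88%, against 8.13% of all genes, and Psmb8 was 1 of the 2. The motifs do not overlap each other in the printed promoters. A match of letters is a description of the window.

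The 6 ATPases, the ring that unfolds substrates, had values close together in both groups. Their log2 fold changes lay between -0.028 and 0.082, with adjusted p from 0.89 to 0.999 (limma). Psmc5 (Rpt6) had 1131, 1089 and 1201 normalized counts in RORγt+ libraries, against 1104, 1086 and 1052 in CCR6+RORγt- libraries, a log2 fold change of 0.076 ± 0.11 (SE). Psmc4 (Rpt3) had 1016, 971 and 1329.8 normalized counts in RORγt+ libraries, against 1052, 1025 and 1026 in CCR6+RORγt- libraries, a log2 fold change of 0.082 ± 0.15 (SE). Psmc1 (Rpt2) had 873, 996 and 988 normalized counts in RORγt+ libraries, against 992, 912 and 816 in CCR6+RORγt- libraries, a log2 fold change of 0.072 ± 0.13 (SE). In each of these 3 genes the groups overlapped. Psmc6 (Rpt4), named after its values were seen, was the exception in its spread, with 1275, 1029 and 403 normalized counts in RORγt+ libraries, against 665, 771 and 1025 in CCR6+RORγt- libraries. Its log2 fold change was 0.0027 ± 0.41 (SE), and 0.50 without RORγt+ replicate 3 (unadjusted p = 0.0447, limma adjusted p = 0.272), the library that holds its lowest value.

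The 11 non-ATPase subunits form the lid and the ubiquitin-binding part of the base. Of these, 5 had a log2 fold change above 0 and 6 below, with a median of -0.025. Psmd8 (Rpn12) had 1441, 1350.4 and 1726 normalized counts in RORγt+ libraries, against 1237, 1355 and 1029 in CCR6+RORγt- libraries, a log2 fold change of 0.32 ± 0.16 (SE; limma adjusted p = 0.54). Psmd11 (Rpn6), a lid scaffold subunit, had 819, 871 and 1009.7 normalized counts in RORγt+ libraries, against 781, 742 and 744 in CCR6+RORγt- libraries, a log2 fold change of 0.25 ± 0.13 (SE; limma adjusted p = 0.59). Psmd7 (Rpn8) lay the other way, with 743, 762 and 782 normalized counts in RORγt+ libraries, against 853, 844 and 835 in CCR6+RORγt- libraries. Psmd7 partners the deubiquitinase Psmd14 (Rpn11) in the lid. The spread of Psmd7 was small and the groups did not overlap, yet the log2 fold change was only -0.15 ± 0.12 (SE; limma adjusted p = 0.735). Psmd14 itself had a log2 fold change of -0.13 with overlapping groups. The ubiquitin receptor Psmd4 (Rpn10) had one of -0.12, and the scaffolds Psmd1 and Psmd2 had -0.088 and -0.025. Without RORγt+ replicate 3 the values were 0.011 for Psmd14, -0.19 for Psmd4, -0.015 for Psmd1 and -0.20 for Psmd2.

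Alternative caps can dock on the core in place of the regulatory particle. Psme1 and Psme2 encode PA28α and PA28β, the subunits of an interferon-γ inducible activator. Psme1 (chr14:55578123-55581529, GRCm38) had 3789, 3675 and 4395 normalized counts in RORγt+ libraries, against 4519, 4296 and 3674 in CCR6+RORγt- libraries. The groups overlapped, with a log2 fold change of -0.074 ± 0.13 (SE; limma adjusted p = 0.918). Psme4, which encodes the activator PA200, had 1198, 1159.6 and 608 normalized counts in RORγt+ libraries, against 645, 774 and 1112 in CCR6+RORγt- libraries, a log2 fold change of 0.20 ± 0.31 (SE; limma adjusted p = 0.894) and 0.52 without RORγt+ replicate 3. Psmf1, the inhibitor PI31, had 370.1, 483 and 782 normalized counts in RORγt+ libraries, against 561, 428 and 411 in CCR6+RORγt- libraries, a log2 fold change of 0.17 ± 0.28 (SE; limma adjusted p = 0.907) and -0.13 without RORγt+ replicate 3. For Psme4 and Psmf1 the RORγt+ group held both the highest and the lowest value of the 6 libraries. Psme3, or PA28γ, the nuclear activator, had a log2 fold change of 0.020.

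Psme2 has a near-identical single-exon copy, Psme2b, on chromosome 11, and the table gives each a value. Over 794 aligned transcript bases they differ at 5. The stretch of 98 coding bases that holds 3 of these differences is shown, with the differing bases in capitals, because within the aligned part only such bases tell the genes apart. The stretch of Psme2 crosses 3 exons on chromosome 14 (55587729 to 55587740, 55588040 to 55588094 and 55588233 to 55588263, minus strand, GRCm38).
Psme2, chromosome 14: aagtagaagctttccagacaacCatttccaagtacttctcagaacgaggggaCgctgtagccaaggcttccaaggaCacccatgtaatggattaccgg
Psme2b, chr11:48945555-48945652, minus strand: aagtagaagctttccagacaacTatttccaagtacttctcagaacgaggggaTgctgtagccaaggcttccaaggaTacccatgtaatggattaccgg

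Psme2 had 1469, 1415 and 2015 normalized counts in RORγt+ libraries, against 1577, 1383 and 1149 in CCR6+RORγt- libraries. Psme2b had 572, 665 and 229 normalized counts in RORγt+ libraries, against 326, 372 and 719.5 in CCR6+RORγt- libraries. The library with the most Psme2, RORγt+ replicate 3, held the least Psme2b, and the library with the least Psme2, CCR6+RORγt- replicate 3, held the most. Taken apart, Psme2 had a log2 fold change of 0.25 ± 0.19 (SE; limma adjusted p = 0.721) and Psme2b one of -0.0004 ± 0.45 (SE; limma adjusted p = 0.9996), and for either gene the groups overlapped. Without RORγt+ replicate 3 the values were 0.086 for Psme2 and 0.47 for Psme2b. Taken as a sum, the genes had 2041, 2079.96 and 2244 normalized counts in RORγt+ libraries, against 1903, 1754 and 1868 in CCR6+RORγt- libraries. All sums of RORγt+ libraries were above those of CCR6+RORγt- libraries, with a log2 fold change of 0.20 ± 0.11 (SE; limma adjusted p = 0.593). The sum was chosen after seeing the data. How reads were divided between the copies was not tested.

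**Figure D3:**
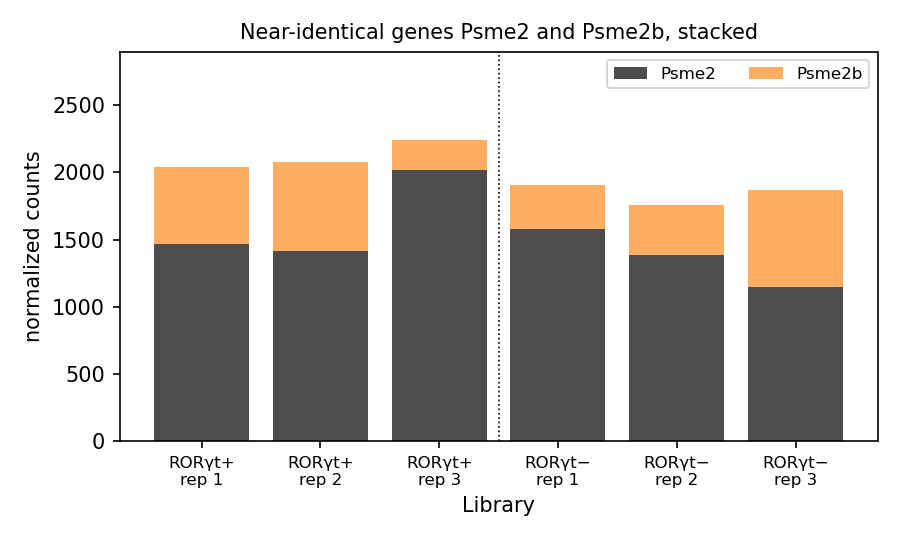
Normalized counts of Psme2 (dark) and Psme2b (light), stacked, in each RORγt+ and CCR6+RORγt- library (RORγt- in the axis labels). The split between the copies ranges widely, with Psme2b at 229 to 719.5, while the stack stays between 1754 and 2244.

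The median log2 fold change of the 7 assembly genes was 0.0026. Psmg1 and Psmg2 encode PAC1 and PAC2, and Psmg3 and Psmg4 encode PAC3 and PAC4, chaperone pairs that build the alpha ring. Psmg1 had 195, 171 and 211 normalized counts in RORγt+ libraries, against 208, 201 and 185 in CCR6+RORγt- libraries. Psmg2 had 188, 172 and 219 normalized counts in RORγt+ libraries, against 188, 208 and 189 in CCR6+RORγt- libraries. Psmg3 had 92.7, 96.9 and 143 normalized counts in RORγt+ libraries, against 125, 111 and 98.7 in CCR6+RORγt- libraries. For these 3 the groups overlapped, with log2 fold changes of -0.044, -0.020 and -0.031 (limma adjusted p from 0.97 to 0.983). Psmg4 (chr13:34162964-34178173, GRCm38) was higher in every RORγt+ library, with 166, 189 and 195 normalized counts in RORγt+ libraries, against 129, 149 and 152 in CCR6+RORγt- libraries. Its log2 fold change was 0.35 ± 0.18 (SE; limma adjusted p = 0.56), and 0.31 without RORγt+ replicate 3. The base chaperones Psmd5, Psmd9 and Psmd10 had log2 fold changes of 0.0026, 0.19 and 0.035, and without RORγt+ replicate 3 of -0.047, 0.069 and -0.13. Per kilobase of merged exons the assembly genes lay at 29.4 to 294 normalized counts with a median of 112, against a median of 414 for the alpha ring.

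The other 4 symbols code for no subunit. Psmc3ip, a recombination factor of meiosis, had 48.1, 33.3 and 58.4 normalized counts in RORγt+ libraries, against 27.6, 29.98 and 31.2 in CCR6+RORγt- libraries, with no overlap and a log2 fold change of 0.60 ± 0.32 (SE; limma adjusted p = 0.573). Psme3ip1 had one of 0.064. The pseudogene Psmb6-ps2 was at or near 0, with 1.07, 4.99 and 0 normalized counts in RORγt+ libraries, against 1.02, 2.72 and 0 in CCR6+RORγt- libraries. Psmc3ip and Psme3ip1 were named after their values were seen.

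Many members followed RORγt+ replicate 3. It was the highest library for 31 of 52 members, or 59.6%, against 27.9% of all genes. Among members of at least 100 normalized counts it was highest for 29 of 48, or 60.4%, against 34.7% of all genes of that level. All 3 immunoproteasome genes and all 7 assembly genes were highest there. It was the lowest library for 11 members, or 21.2%, against 30.9% of all genes, and these 11 included Psmc6, Psme4 and Psme2b. For the 48 members of at least 100 normalized counts, the median distance of replicate 3 from the mean of RORγt+ replicates 1 and 2 was 0.29 on the log2 scale, above the median size of 0.11 of the difference between groups. Over the 9056 genes of that level the same medians were larger, at 0.40 and 0.17.

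**Figure D4:**
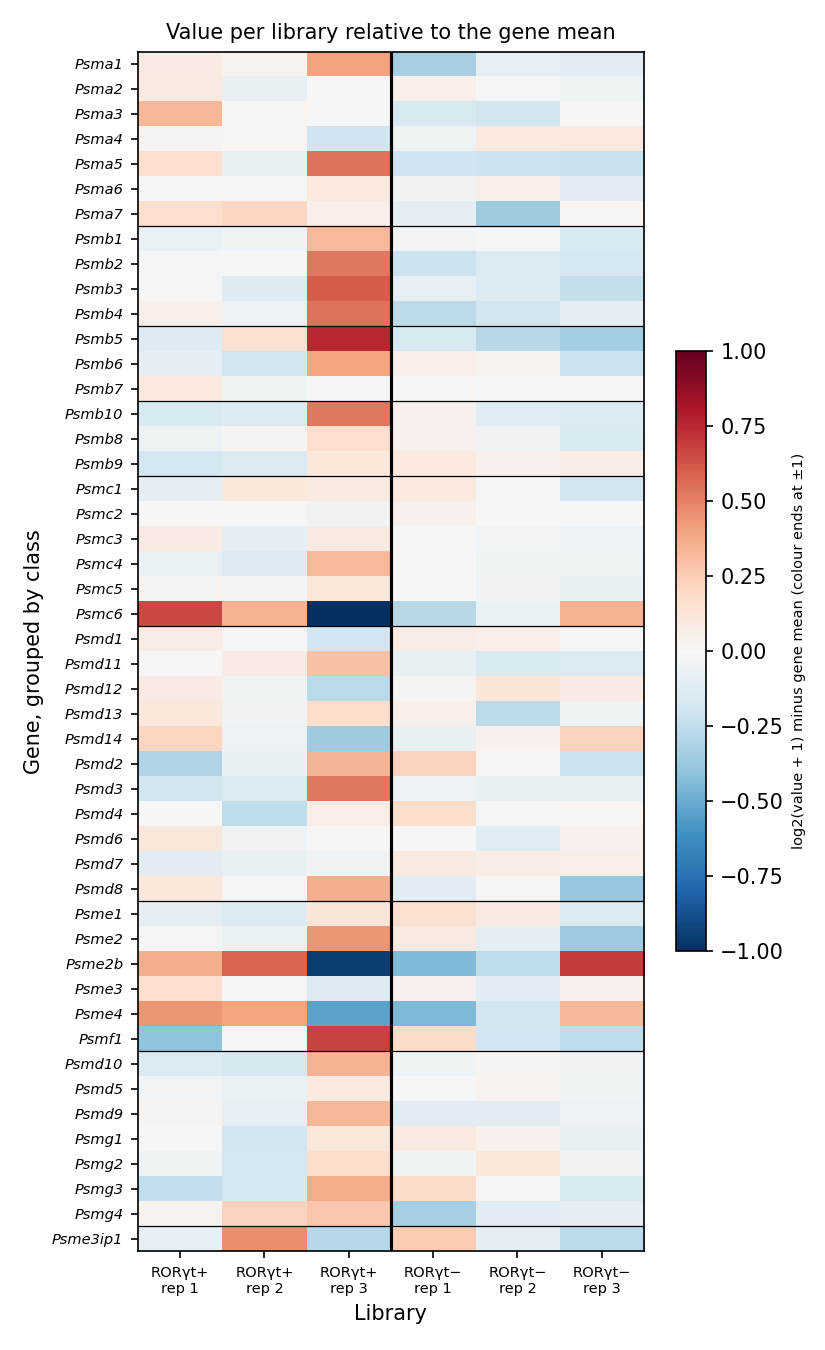
log2(value + 1) of each of 48 members minus its mean over the 6 libraries (colour, ending at ±1), with genes grouped by class and RORγt+ libraries left of CCR6+RORγt- libraries (RORγt- in the axis labels). RORγt+ replicate 3 is the most strongly coloured column, red for most beta subunits and Psmb10 and blue for Psmc6, Psme2b and Psme4.

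GC content of the transcript moved with the deviation of that library. Across the 48 members, replicate 3's deviation from the mean of all libraries had a Pearson correlation of 0.52 with GC content, and 0.50 across 9041 genes of that level. These values are across genes of the same libraries, which are not independent replicates. The 8 members under 45% GC lay at a median of -0.20 in replicate 3 against RORγt+ replicates 1 and 2, the 16 from 45% to 50% at 0.070, the 15 from 50% to 55% at 0.31, and the 9 at 55% or more at 0.53. Psmc6 had the lowest GC content of these 48 at 37.0%, and Psmb5 stood at 56.6%, Psmb10 at 56.5% and Psmg3 at 56.3%. The other RORγt+ libraries deviated the opposite way, with correlations of -0.55 for replicate 1 and -0.26 for replicate 2. For each gene the deviations cancel out over the libraries, so opposite signs are partly built in. The CCR6+RORγt- libraries also differed, with 0.30 for replicate 1, -0.12 for replicate 2 and -0.44 for replicate 3. After each library was corrected for GC content and transcript length, 0 of 52 members passed the test, where 0.935% of all genes did. In that fit 39 members were above 0 and the median log2 fold change was 0.11.

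**Figure D5:**
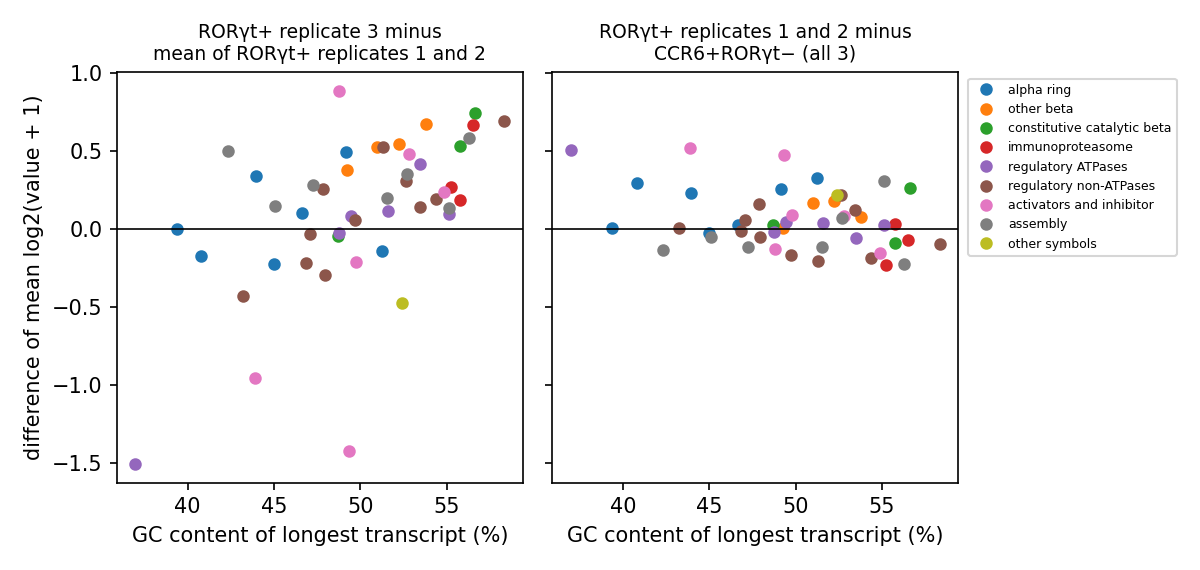
GC content of the longest transcript (x axis, %) against the difference of mean log2(value + 1), for the 48 members of at least 100 normalized counts (points, coloured by class). Left, RORγt+ replicate 3 minus RORγt+ replicates 1 and 2, with medians from -0.20 under 45% GC to 0.53 at 55% or more; right, RORγt+ replicates 1 and 2 minus CCR6+RORγt-, where the same bins have medians between -0.071 and 0.12.

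Genes that work with the proteasome but carry other symbols were read in 4 lists, and none passed the test. Of 12 partners measured, 6 had a log2 fold change above 0 and 6 below. Only 1 had an unadjusted p under 0.05, where 10.9% of all genes did. That gene was Pomp, the maturation factor on which the beta ring is assembled, with 969.8, 856 and 882 normalized counts in RORγt+ libraries, against 716, 658 and 654 in CCR6+RORγt- libraries. The groups were far apart for their spread, and the log2 fold change was 0.42 ± 0.13 (SE; limma adjusted p = 0.288), and 0.43 without RORγt+ replicate 3. Txnl1, a thioredoxin-like protein of the regulatory particle, had 671, 545 and 639 normalized counts in RORγt+ libraries, against 515, 474 and 527 in CCR6+RORγt- libraries, a log2 fold change of 0.29 (limma adjusted p = 0.544). Usp14, a deubiquitinase of the regulatory particle, had one of 0.21, the ubiquitin receptor Adrm1 (Rpn13) 0.082 (-0.091 without RORγt+ replicate 3), and Sem1, a small lid subunit, -0.023.

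Of 9 transcription regulators of proteasome genes and their activators, 0 passed and 0 had an unadjusted p under 0.05, with 4 log2 fold changes above 0 and 5 below. Without RORγt+ replicate 3, 0 passed and 3 had an unadjusted p under 0.05, where 1.09% and 17.7% of all genes did. Nfe2l1, which drives the compensatory rise of proteasome genes when the proteasome is blocked, had 1014, 1350.0 and 883 normalized counts in RORγt+ libraries, against 1338, 1273 and 1150.5 in CCR6+RORγt- libraries. Its log2 fold change was -0.23 ± 0.18 (SE; limma adjusted p = 0.726), and -0.097 without that library. Ddi2, the protease that activates the Nfe2l1 protein, had one of -0.39 (limma adjusted p = 0.5), and -0.23 without it. Nfya had one of -0.30 (limma adjusted p = 0.659), and -0.46 without it. Nrf1, which is a different gene from Nfe2l1, had one of -0.23 (limma adjusted p = 0.696), and -0.34 without it. The 4 above 0 were Nfe2l2 at 0.080, Vcp at 0.061, Nfyb at 0.037 and Nfyc at 0.0033, named after their values were seen. Without RORγt+ replicate 3 they were 0.13 for Nfe2l2, -0.010 for Vcp, 0.30 for Nfyb and -0.14 for Nfyc.

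Of 10 antigen processing partners, 0 passed and 1 had an unadjusted p under 0.05, where 10.9% of all genes did. For 3 of the 10, or 30%, the groups did not overlap, all lower in RORγt+ Tregs. Over all genes 18.1% had no overlap in either direction and 9.81% were lower. Irf8, an interferon-responsive transcription factor, had 186, 201 and 193 normalized counts in RORγt+ libraries, against 268, 405 and 223 in CCR6+RORγt- libraries, a log2 fold change of -0.58 ± 0.24 (SE; limma adjusted p = 0.439). Tapbpl, a peptide editor of MHC class I, had one of -0.27 (limma adjusted p = 0.486). Tap1, a subunit of the peptide transporter, lies head to head with Psmb9 on chromosome 17. It had 3265, 3281 and 4803 normalized counts in RORγt+ libraries, against 3653, 3613 and 3573 in CCR6+RORγt- libraries. As in Psmb9, RORγt+ replicates 1 and 2 were below all CCR6+RORγt- libraries and replicate 3 above them, with a log2 fold change of 0.042 (limma adjusted p = 0.97), and -0.14 without replicate 3. Nlrc5, the coactivator of MHC class I genes, had one of -0.096 (limma adjusted p = 0.868). Without RORγt+ replicate 3, 0 of the 10 passed and 3 had an unadjusted p under 0.05, where 1.09% and 17.7% of all genes did. In that fit 1 of the 10 log2 fold changes was above 0, against 4 with all libraries.

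Of 8 ubiquitin genes, 0 passed and 1 had an unadjusted p under 0.05, where 10.9% of all genes did, and 2 log2 fold changes were above 0. Without RORγt+ replicate 3 again 0 passed, but 0 of the 8 were above 0 and 4 had an unadjusted p under 0.05, where 17.7% of all genes did. The polyubiquitin gene Ubb had a log2 fold change of -0.095 with overlapping groups, and -0.23 without RORγt+ replicate 3. Uba1, the enzyme that activates ubiquitin, had one of 0.19, and -0.088 without that library. Ubqln4, a shuttle that brings tagged proteins to the proteasome, had -0.24, and -0.42 without it.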

How the data were processed

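Total RNA of sorted splenic Tregs was sequenced in 6 libraries, 3 in each group, grouped by the sample titles. The deposited values are a normalized signal, the authors' normalized counts, and are not whole reads. Per the submitters' processing notes, the tools were Salmon 1.2.0 and DESeq2, whose version and role are not named, and the build was GRCm38. Their annotation and filters are not given in the sources here. The value of 1 read was 0.82 to 1.24 normalized counts, so low genes rest on few reads.

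Values were analysed as log2(value + 1) with limma 3.58.1 in R 4.3.3 (group as the only term, trended empirical Bayes variances, two-sided p, adjusted by Benjamini-Hochberg over all 15944 genes), and the fit was tested on simulated data. The design allowed a count-based test only for raw counts, so it was not used. Members follow the symbol pattern, and gene lists come from textbook knowledge. Members and lists were chosen with earlier results of these data known, so lists are described by counts and medians without a p. Values in every library are given for the immunoproteasome genes, the constitutive catalytic genes, Psme1, Psme2, Psmg1 to Psmg4, and the 3 genes of smallest p in each other class. Members under a mean of 10 are named, as are up to 3 companion genes per list and 6 fixed ones. A few companion genes are not reported here. Other names are said to be chosen after their values were seen or serve to complete a class.

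Positions, lengths and GC content came from GENCODE M21, which held 15851 of the gene identifiers. Each member's longest transcript was cut into 31-base windows, and those also present in another gene's transcripts were counted on both strands. Over 20% of windows were shared in 15 of 52 members, whose values are less certain. They were Psma3, Psma4, Psma5, Psmb3, Psmb5, Psmb7, Psmc1, Psmd2, Psmd11, Psme1, Psme2, Psme2b, Psmg3, Psmc3ip and Psma5-ps. Alternatives were other pseudocounts, scalings, a filter on low values, robust variances, array weights, a replicate block, each library left out, another gene length, and, chosen after seeing the data, a GC and transcript length correction and the sum of Psme2 and Psme2b.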

Additional observations from a re-analysis of the deposited data

How the results depend on the processing

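In every alternative run, 0 of 52 members passed the test. Among proteasome genes chosen by the naming rule, the log2 fold change turned sign for Psmb7 with upper-quartile scaling (-0.0071) and for Psmg2 with library-total scaling (0.0084). With array weights it turned for Psmb10 (-0.016), Psmb6 (-0.061), Psmc4 (-0.030) and Psmf1 (-0.033). After the correction for GC content and transcript length it turned for Psmg1 (0.036), Psmg2 (0.022) and Psmg3 (0.024). Outside that rule, the same correction turned it for Psma2 (-0.10), Psmc6 (-0.15) and Psme2b (0.10). The alpha ring median became 0.27 with library-total scaling and 0.16 after the GC correction. Over the longest transcript the immunoproteasome share became 65.4% in RORγt+ and 67.4% in CCR6+RORγt- libraries. The cause of these shifts was not tested.

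Leaving out each library in turn gave log2 fold changes of -0.071 to 0.27 for Psmb10, -0.092 to 0.20 for Psmb6, -0.031 to 0.044 for Psmb7, -0.0012 to 0.14 for Psmc1, -0.059 to 0.17 for Psmc4, -0.13 to 0.41 for Psmf1, -0.11 to 0.036 for Psmg1, -0.11 to 0.057 for Psmg2 and -0.23 to 0.082 for Psmg3. Class medians ran from -0.0073 to 0.10 for activators and inhibitor, 0.13 to 0.29 for the alpha ring, -0.071 to 0.14 for the immunoproteasome, 0.30 to 0.66 for the other symbols and -0.051 to 0.062 for the non-ATPases. The other proteasome genes chosen by the naming rule kept their sign in these fits. The other class medians and all 3 ratios moved by less than 1 SD between libraries, though the assembly median (-0.11 to 0.082) and the Psmb10/Psmb7 ratio (-0.099 to 0.30) turned sign. Genes outside that rule also turned sign without RORγt+ replicate 3, among them Uba1, Tap1, Adrm1, Vcp, Nfyc, Psmd14, Psmd5, Psmd10 and Psme2b. Calls over all genes moved from 90 to between 4 and 174 when a library was left out, to 1 with the replicate block, to 149 after the GC correction and to 358 with array weights.

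Libraries of the same number did not deviate together (correlations of -0.11, -0.022 and -0.18, across genes), and no RORγt+ library correlated best with its own number. The labels do not say that a number marks a shared animal or day. With the replicate block, 0 members passed the test.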
